A study of Homo sapiens with 6 samples.

Results

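The 492 genes described here are antisense transcripts, RNAs annotated on the strand opposite to a known gene, that were well expressed in a human bile duct cell line. They are the rows of the deposited gene table with biotype antisense, on an autosome of the primary assembly, with a mean count of at least 300 over the 6 libraries, and 1 further row that meets these terms was left out by the selection rule. The table holds 5433 antisense rows on the autosomes and 64253 genes in all. Mean counts of the 492 ran from 300.17 to 48453 reads with a median of 632. That mean chose the members, so their abundance is a description, whereas the difference between treatments was not used to choose them. RNA was sequenced from H69 cells, an immortalised human cholangiocyte line, at passages 30 to 32, 16 h after either vehicle or 10 ng/ml of recombinant human TGF-beta, with 3 libraries in each group. The labels do not state separate cultures for the libraries, so a p-value here reflects no more than the scatter of these 6 libraries, which could be purely technical.

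An antisense gene overlaps or abuts a gene on the other strand, its sense partner, and is read in the opposite direction. Some antisense RNAs start beside the start of the partner and share a promoter region with it, some meet its far end, and others lie wholly within it. TGF-beta acts through SMAD transcription factors and in epithelial cells raises matrix, cytoskeletal and adhesion genes, several of which carry an annotated antisense gene. The partner was taken as the protein_coding gene with the longest overlap of genomic span. It existed for 485 of the 492 rows, which share 467 partners: 452 partners had 1 antisense row, 13 had 2, 1 had 3 and 1 had 4. The sources used here do not state whether reads were counted by strand, so reads from a gene and from its antisense partner cannot be told apart where their exons overlap, and each value below is the count assigned to a row.

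The shared stretches of 2 pairs are shown because they make plain what such an overlap is. RP5-940J5.9 lies on chromosome 12 from 6537794 to 6538370 (GRCh38), on the minus strand, and 100% of its exon bases fall inside exons of GAPDH, the glycolytic enzyme gene. Its bases chr12:6537938-6537985 are exactly the reverse complement of GAPDH coding sequence. Both are written 5′ to 3′ from GENCODE 29 transcripts, with shared bases in capitals.
RP5-940J5.9: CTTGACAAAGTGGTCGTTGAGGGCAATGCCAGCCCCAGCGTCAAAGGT
GAPDH: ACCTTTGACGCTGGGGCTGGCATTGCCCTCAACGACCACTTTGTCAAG
The antisense row of the tropomyosin gene TPM1, RP11-244F12.3 (now TPM1-AS, chr15:63046034-63049387, minus strand), has 61.7% of its exon bases inside TPM1 exons. The window chr15:63048684-63048731 runs from 24 bases outside TPM1 exons, in lower case, into 24 bases of a TPM1 coding exon, in capitals.
RP11-244F12.3: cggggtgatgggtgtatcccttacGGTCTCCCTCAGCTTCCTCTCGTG
TPM1: CACGAGAGGAAGCTGAGGGAGACC
Read without regard to strand, a fragment of the capitals matches both rows, while a fragment of the lower-case bases matches only the antisense row of this pair. Across the rows whose exons could be matched, 205 had at least 50% of their exon bases inside partner exons, 98 of them wholly, 245 had a smaller share above 0, and 24 shared none.

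The libraries held 37205862 to 54160521 assigned reads, of which the 492 rows took 1.68% to 1.74%. In the TGF-beta libraries 20 of 22 tested genes of a TGF-beta response list were higher and none was lower. Over all genes tested 19.7% were called higher. That list was chosen with earlier results of these data known, so its count is a description and not an independent check. The keratins KRT7, KRT8, KRT18 and KRT19 of the cholangiocyte list were abundant, whereas CFTR was at 0 in every library and SPP1 was near 0. The fibroblast list, mostly COL1A1, summed to 1712 to 1896 CPM (counts scaled to library depth, with TMM factors) in vehicle. In TGF-beta libraries it summed to 5127 to 5877 CPM. COL1A1, COL1A2, PDGFRB and THY1 were called higher. PDGFRA was called lower, from a mean of 6.84 CPM in vehicle to 4.17 CPM in TGF-beta libraries. DCN was low and not called, and LUM and COL3A1 were at or near 0. The part of this list in the results was not tested. The endothelial list summed to 10.9 to 24.3 CPM over the libraries, mostly KDR, which was called lower, as was PECAM1. The immune list summed to 11.5 to 15.8 CPM, mostly CD68, which was not called, and CD14, which was called lower. The hepatocyte list summed to 65.6 to 80.3 CPM, mostly SERPINA1, which was called higher. APOB was at 20.1 CPM in vehicle library 1 and was not called. ALB and PTPRC were near 0. Vehicle library 1 stood apart: over the 492 rows it differed from the other vehicle libraries by a median of 0.12 and 0.13 log2 CPM, against 0.07 between those 2.

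With TGF-beta 140 of the 492 antisense rows were higher and 74 lower, while 278 did not pass the test (edgeR's quasi-likelihood test, Benjamini-Hochberg adjusted p under 0.05 over all genes tested). Over all 20992 genes tested, 40.1% were called, 19.7% higher and 20.4% lower. The called share of the antisense rows was 43.5%, near that background and below the 48.6% of protein_coding rows with the same minimum mean count. The CPM ranges of the groups did not overlap in 269 rows (54.7%), against 52.3% of all genes tested. Of the 1817 other antisense rows tested on the autosomes, 229 were higher and 245 lower (26.1%). Apart from the row left out by the selection rule, these lie below the count limit and have fewer reads. Members had a median change of 0.05 log2 and all genes tested one of -0.01. The split between rises and falls rested on the scaling: with library totals alone, which moved the median of all genes to -0.14, 77 members were higher and 139 lower, and on the deposited RPKM values (limma) 87 were higher and 110 lower. Without vehicle library 1 the counts were 182 higher and 92 lower, and without TGF-beta library 2 they were 94 and 50.

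The largest rises lay opposite a kinase gene, a tropomyosin gene, a transporter gene and a collagen gene. Of the 24 rows called with at least a 2-fold rise (a log2 fold change of 1 or more), the sense partner was also called higher in 23, and the change differed from the partner's in 3. RP3-428L16.2 (now MAP3K4-AS1, opposite MAP3K4, a kinase of the stress-activated MAP kinase cascade) was at 2.96, 1.89 and 1.83 CPM in vehicle and 13.8, 14.1 and 13 CPM in TGF-beta libraries. The groups lay far apart, and this was the largest rise among the members (log2 fold change 2.63 ± 0.16 SE, edgeR adjusted p = 1.58e-06). RP11-244F12.3, opposite TPM1, which encodes the actin-binding protein tropomyosin, was at 9.16, 8.99 and 8.37 CPM in vehicle and 37.0, 36.2 and 37.6 CPM in TGF-beta libraries. Its libraries were tight within each group and its log2 fold change was 2.06 ± 0.06 SE (edgeR adjusted p = 2.92e-09). RP4-536B24.2, inside the amino acid transporter gene SLC7A5, was at 6.94, 7.01 and 6.40 CPM in vehicle and 23.9, 25.1 and 25.5 CPM in TGF-beta libraries, a log2 fold change of 1.87 against 1.98 for SLC7A5.

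COL4A2-AS1 lies within COL4A2, which encodes a chain of basement membrane collagen IV, and was at 7.87, 7.12 and 7.71 CPM in vehicle against 22.0, 24.4 and 25.6 CPM in TGF-beta libraries. Its log2 fold change of 1.67 stood beside 1.61 for COL4A2. P4HA2-AS1 rose by 1.54 log2 and its partner P4HA2, a subunit of the prolyl hydroxylase that modifies collagen, by 1.55. CTD-2033D15.1 lies at the gene of the matrix glycoprotein thrombospondin 1, THBS1, and was at 43.4, 44 and 43.3 CPM in vehicle and 118, 117 and 125 CPM in TGF-beta libraries. These groups were separate and the log2 fold change of 1.46 was close to the 1.44 of THBS1. PRICKLE2-AS1 rose by 1.59 log2 beside 1.56 for the planar polarity gene PRICKLE2, and RP11-103C16.2 by 1.45 beside 1.52 for the receptor phosphatase gene PTPRK. The differences of these pairs from their partners ran from -0.06 to 0.06 log2 and none was called. The other 14 rises ran from 1.01 to 1.43 log2.

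Several of those 14, named after their values were seen, share 1 partner. The 3 rows inside PIEZO1, a mechanosensitive ion channel gene, rose by 1.24 to 1.32 log2 and PIEZO1 by 1.24. The 2 rows inside NAV2 rose by 1.06 and 1.11 log2 and NAV2 by 1.07. RP11-753H16.5, which spans the integrin gene ITGA5, rose by 1.22 log2 with ITGA5 at 1.15, and AC017101.10, at the integrin gene ITGAV, by 1.43 with ITGAV at 1.38. Rows with 1 partner are not independent measurements of it.

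A fall of at least 2-fold was called in 3 rows. The share of all genes tested that passed the same 2-fold limit is not given here. The 24 rises and 3 falls therefore describe these rows and show no trait of antisense rows. NR2F1-AS1, read divergently from the nuclear receptor gene NR2F1, was at 7.18, 13.1 and 14.3 CPM in vehicle and 3.95, 4.21 and 4.57 CPM in TGF-beta libraries. The groups did not overlap, vehicle library 1 was the lowest of its group, and the log2 fold change was -1.45 ± 0.28 SE (edgeR adjusted p = 0.0105). NR2F1 itself was also lowest in library 1 of the vehicle group, at 11.6, 26.1 and 27.6 CPM in vehicle and 7.16, 7.06 and 7.15 CPM in TGF-beta libraries, a log2 fold change of -1.62 (edgeR adjusted p = 0.0298). The call for NR2F1 was lost in 7 of 14 alternatives, over which its adjusted p ran from 6.81e-20 to 0.093. CTC-548K16.5, wholly inside exons of the adhesion receptor gene CD97, fell by 1.07 log2 and CD97 by 1.02. AC007319.1 (now CALCRL-AS1) was at 19.3, 14.8 and 15.4 CPM in vehicle and 8.76, 7.13 and 7.53 CPM in TGF-beta libraries, a fall of 1.08 log2. Its partner by overlap, the receptor gene CALCRL, had a mean count of 0.667 and was not tested. Over 10% and up to 50% of the exon bases of AC007319.1 lie in exons of another gene.

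**Figure D1:**
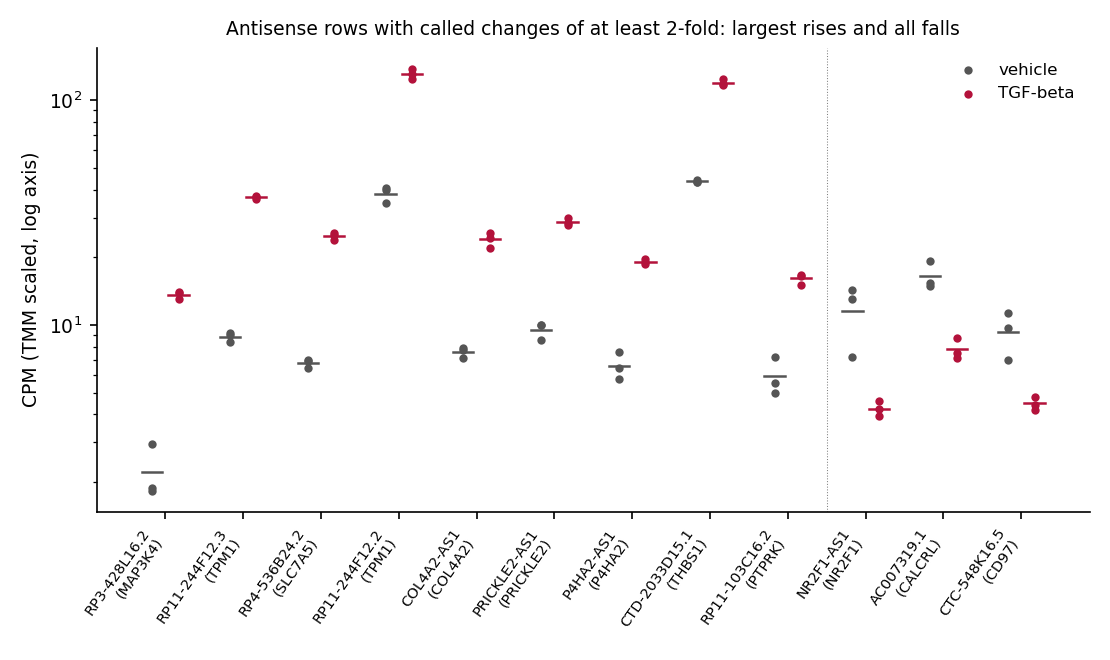
CPM per library (log axis) for 9 of the 10 largest called rises and the 3 called falls of at least 2-fold, with the sense partner in brackets; grey points are vehicle, red points TGF-beta, and short lines group means. In all 12 rows the 3 libraries of one group lie apart from the 3 of the other, and RP3-428L16.2 has the widest gap.

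The change of an antisense row stood close to that of its sense partner where most of its exon bases lie in partner exons, and less close where few do. Both genes were tested in 477 pairs. In 172 pairs both were called, 169 of them in the same direction and 3 in opposite directions. In 36 pairs the antisense row alone was called, in 73 the partner alone, and in 196 neither was. The same counts over all antisense and protein_coding pairs tested are not given here. Across the 477 pairs Pearson's r between the log2 fold changes was 0.87 and Spearman's rho 0.86, a description over points that come from the same 6 libraries. The median absolute difference was 0.05 log2 and 346 pairs (72.5%) lay within 0.1. An interaction test in edgeR called the antisense change different from the partner's in 42 of the 477 pairs (8.81%), near the 8.44% of all 2109 antisense and protein_coding pairs tested. The antisense change lay above the partner's in 22 and below it in 20. Without vehicle library 1 the interaction test called 44 above and 31 below, and without TGF-beta library 3 it called 12 and 9.

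**Figure D2:**
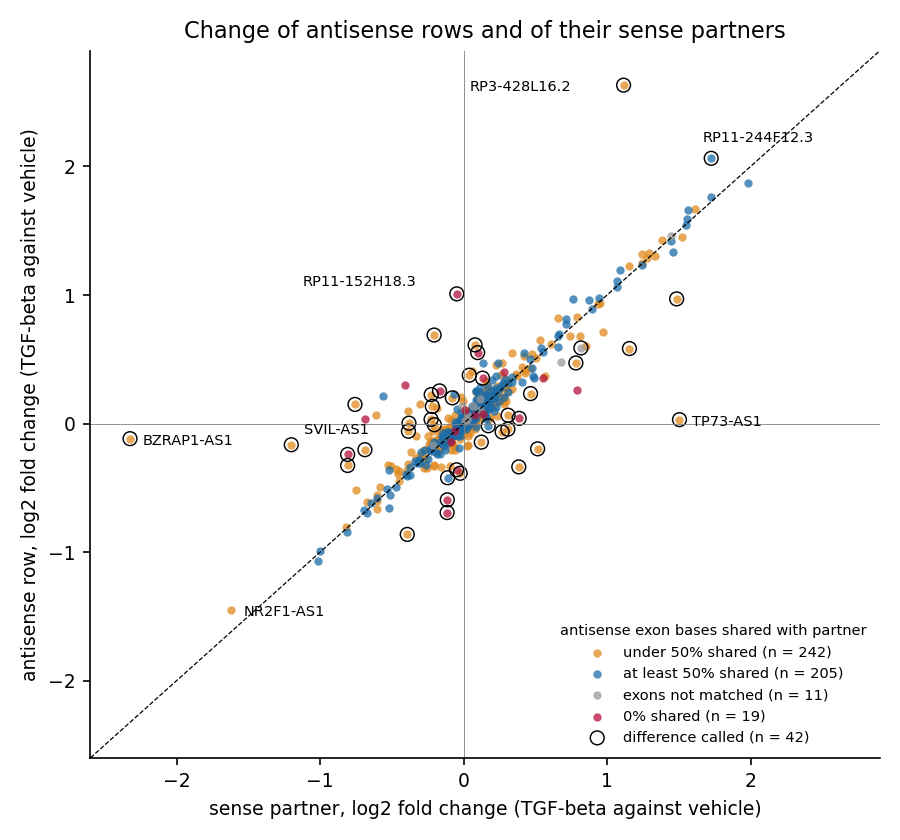
Log2 fold change of each antisense row (vertical) against that of its sense partner (horizontal) for 477 pairs, coloured by the share of antisense exon bases inside partner exons; the dashed line marks equal change and black rings mark the 42 pairs with a called difference. Pairs sharing at least 50% lie along the line with r of 0.98 (Spearman's rho 0.94), while the 19 sharing 0% have r of 0.29 (rho 0.51).

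The classes of shared exon bases differed in this. With at least 50% of the antisense exon bases inside partner exons (205 pairs), r was 0.98, the median absolute difference 0.04 log2, and 3 differences were called (1.46%). With a smaller share above 0 (242 pairs), r was 0.81, the median absolute difference 0.06 log2, and 29 were called (12%); among the 53 of these pairs that share at most 10%, r was 0.70 and 14 were called. With no shared exon base (19 pairs), r was 0.29, the median absolute difference 0.35 log2, and 9 were called (47.4%). Spearman's rho was 0.94, 0.82 and 0.51 in these 3 classes. It was 0.55 in the 53 pairs sharing at most 10% but above 0, so by rank these stood close to the 19 pairs sharing none. Of the 9 rows called with no base shared, 8 share exon bases with another gene, and 5 were no longer called against an overlapping gene with a higher mean count. Only 3 of the 19 pairs share no exon base with any gene, and 1 of them was called (PSMD5-AS1). Leaving out vehicle library 1 gave 14, 47 and 11 called differences in these 3 classes, and leaving out TGF-beta library 3 gave 0, 15 and 5.

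The same order was seen without any treatment. The log2 difference of vehicle library 1 from the mean of the other vehicle libraries was correlated between antisense row and partner with r of 0.91 in the class sharing at least 50%, 0.74 below that, and -0.09 where no exon base was shared. That comparison uses the vehicle libraries only, and its points share those libraries. The same vehicle libraries enter every log2 fold change above, so it is not independent of the correlations between those changes.

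**Figure D3:**
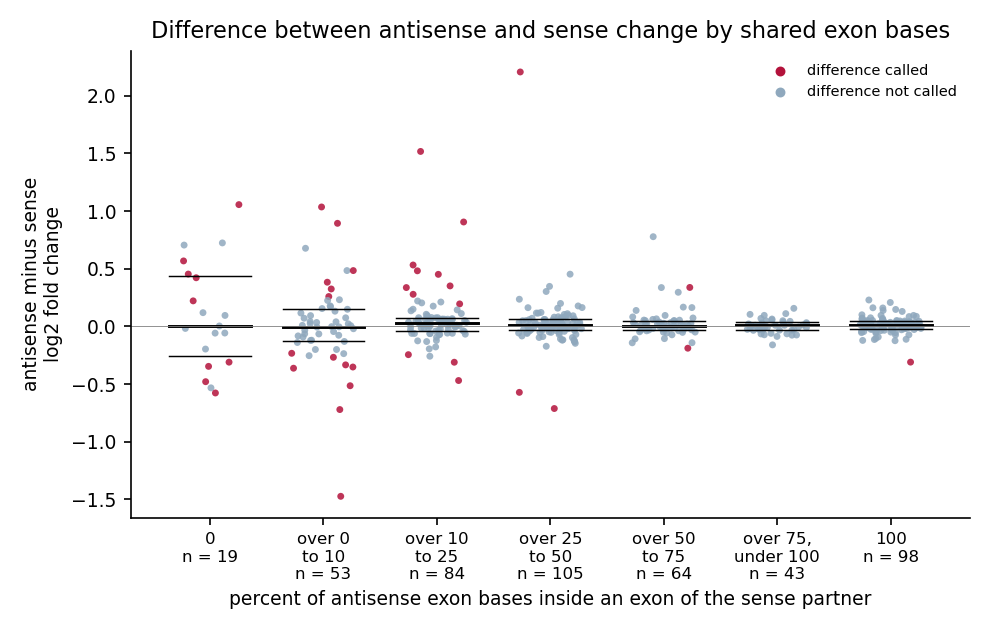
Antisense minus sense log2 fold change (vertical) for pairs grouped by the percent of antisense exon bases inside an exon of the partner (horizontal); red points are called differences, the thick line is the median and thin lines the quartiles. The spread narrows from the 19 pairs with 0% shared to the 98 wholly inside, of which 1 was called.

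The read density of the antisense rows also differed between these classes, though not in the same order. Counts per exon base of the antisense row were divided by those of the partner, a ratio of levels per length. The median ratio was 1.24 in the 205 rows with at least 50% shared and 0.51 in the 245 rows with a smaller share above 0. Among the 98 rows wholly inside partner exons it was 1.47, and 84 of them had more reads per base than the partner they lie in. The 24 rows sharing no exon base had a median of 1.0 with quartiles of 0.25 and 30.2, so they ranged widely.

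**Figure D4:**
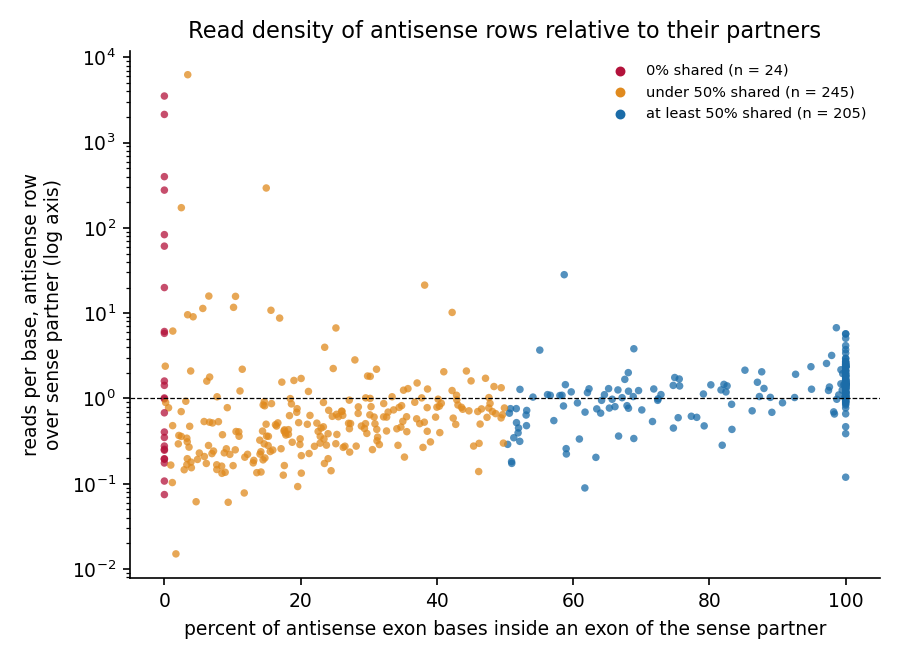
Reads per exon base of each antisense row divided by that of its sense partner (log axis) against the percent of antisense exon bases inside partner exons, for 474 rows with matched exons; the dashed line marks equal density. Rows at 100% cluster at or above the line, and 84 of those 98 exceed 1.

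The 5 antisense rows with the highest mean counts lie at TUBA1B, GAPDH, TPT1, TUBB and KRT7. RP5-940J5.9, whose GAPDH stretch is printed above, had 1089 ± 85.6 RPKM (reads scaled to length and depth, mean ± SD, n = 3) in vehicle and 1006 ± 41.7 RPKM in TGF-beta libraries, against 450 ± 32.2 and 419 ± 14.5 RPKM for GAPDH. Its read density was 2.42 times that of GAPDH, and neither change passed the test (log2 fold changes of -0.03 and -0.02, whose signs flipped when single libraries were left out). RP5-940J5.9 was called lower with library totals alone (-0.16 log2, adjusted p = 0.0487) and without vehicle library 1 (-0.09 log2, adjusted p = 0.0459). RP11-290D2.6, wholly inside exons of TPT1, the translationally controlled tumour protein gene, had 5.71 times the density of TPT1. Its log2 fold change was -0.08 beside -0.06 for TPT1, and neither was called. RP11-290D2.6 was called lower in 2 of 14 alternatives and TPT1 in 3, both of them with library totals alone (-0.21 and -0.19 log2). RP11-386G11.10 at the tubulin gene TUBA1B and XXbac-BPG252P9.9 at the tubulin gene TUBB had 1.44 and 1.24 times the density of their partners. The log2 fold changes of these 2 rows were 0.11 and 0.10, beside 0.10 for TUBA1B and 0.11 for TUBB. These were not called, except RP11-386G11.10 without vehicle library 2, and with library totals alone all 4 were slightly below 0. RP3-416H24.1 (now KRT7-AS) rose with the keratin gene KRT7: it was at 377, 303 and 312 CPM in vehicle and 631, 598 and 674 CPM in TGF-beta libraries, a log2 fold change of 0.94 beside 0.95 for KRT7.

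Called differences also varied with pair geometry, read from the GENCODE 29 strands and spans. In the 247 rows lying inside the sense gene r was 0.98 and 4 differences were called (1.63% of 246 pairs). In 131 tail-to-tail rows, which overlap at the far ends, 17 were called (13.2% of 129 pairs), and in 70 head-to-head rows, which overlap or lie within 1000 bases at their starts, 12 were called (17.4% of 69 pairs). In 18 rows that contain the sense gene 4 were called, and in 8 rows whose longest overlap is with a gene of the same strand 4 were called. Strand was not matched for 11 rows. Geometry and the share of exon bases went together. With at least 50% shared, 0 of 15 head-to-head and 1 of 36 tail-to-tail pairs were called. With a smaller share above 0 these counts were 10 of 51 and 12 of 87. Rows inside the sense gene with under 50% of exon bases shared also tracked the partner, with r of 0.98 over 90 pairs and 1 called difference.

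The TPM1 locus holds 2 antisense rows whose changes stood at unequal distance from that of TPM1. TPM1 was at 386, 461 and 463 CPM in vehicle and 1455, 1452 and 1429 CPM in TGF-beta libraries, a log2 fold change of 1.73. RP11-244F12.2, wholly inside TPM1 exons, was at 34.8, 39.7 and 40.5 CPM in vehicle and 138, 130 and 124 CPM in TGF-beta libraries. Its change exceeded that of TPM1 by 0.04 log2, which was not called, and like TPM1 it was lowest in vehicle library 1. RP11-244F12.3 was highest in vehicle library 1, and its change exceeded that of TPM1 by 0.34 ± 0.07 log2 SE (edgeR interaction test, adjusted p = 0.00765). Per length RP11-244F12.3 was the scarcer row, at 1.16 ± 0.05 RPKM in vehicle and 4.55 ± 0.06 RPKM in TGF-beta libraries (SD, n = 3), against 24.3 ± 1.93 and 77.9 ± 4.44 RPKM for RP11-244F12.2. The difference from TPM1 kept its sign in 10 alternatives but missed the threshold in 4 of them (adjusted p from 6.17e-08 to 0.0856).

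Among the 42 pairs with a called difference the 2 changes had opposite signs in 15, and in 3 of these both genes were called. RP11-379H18.1 (now HERPUD2-AS1, chr7:35695214-35699413, plus strand) starts beside HERPUD2, a gene of an endoplasmic reticulum stress protein family, and is read away from it with 3.62% of its exon bases shared. It was at 13.9, 13.5 and 13.3 CPM in vehicle and 10.7, 10.7 and 10.9 CPM in TGF-beta libraries. HERPUD2 was at 31.5, 30.3 and 31.9 CPM in vehicle and 40.7, 39.6 and 42.0 CPM in TGF-beta libraries. Neither gene's groups overlapped, the antisense row fell by 0.34 log2 and HERPUD2 rose by 0.38, and the difference was -0.72 ± 0.07 SE (edgeR interaction test, adjusted p = 9.75e-06). RP5-991G20.1 fell by 0.20 log2 while ZFHX3, a zinc finger and homeobox factor gene, rose by 0.52. That fall was no longer called in 4 of 14 alternatives (adjusted p from 0.0018 to 0.12), while the difference of -0.72 log2 from ZFHX3 remained called with an edgeR adjusted p of 2.56e-05. The remaining pair, THUMPD3-AS1 with THUMPD3 (0.23 and -0.23 log2), was named after its values were seen; THUMPD3-AS1 also overlaps SETD5, from whose change it differed by -0.17 log2, not called.

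The promoter windows of the HERPUD2 pair are shown because the 2 RefSeq start sites lie 71 bases apart and the windows (250 bases before to 50 after the start, GRCh38.p14) overlap by 170 bases, yet the counts moved in opposite directions. Each is written 5′ to 3′ in its own direction, HERPUD2-AS1 from chr7:35694956-35695255 on the plus strand and HERPUD2 from chr7:35695086-35695385 on the minus strand. The RefSeq start of HERPUD2 lies 436 bases from the start of the gene in the deposited table. Capitals mark CAGAC, a SMAD-binding core, searched on both strands, so that it also appears as its reverse complement.
HERPUD2-AS1: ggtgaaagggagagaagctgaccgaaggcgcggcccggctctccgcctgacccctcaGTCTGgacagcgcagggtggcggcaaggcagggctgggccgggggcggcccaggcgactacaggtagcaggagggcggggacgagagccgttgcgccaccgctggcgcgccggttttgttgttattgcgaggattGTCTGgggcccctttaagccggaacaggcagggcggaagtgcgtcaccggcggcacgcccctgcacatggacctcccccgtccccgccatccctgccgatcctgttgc
HERPUD2: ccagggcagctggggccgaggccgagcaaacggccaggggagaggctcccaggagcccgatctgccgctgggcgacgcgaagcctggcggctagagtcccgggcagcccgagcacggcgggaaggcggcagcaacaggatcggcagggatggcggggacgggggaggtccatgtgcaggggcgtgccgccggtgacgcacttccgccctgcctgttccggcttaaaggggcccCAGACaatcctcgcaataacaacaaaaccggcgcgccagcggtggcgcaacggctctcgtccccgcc
HERPUD2-AS1 has 2 matches and HERPUD2 has 1, which is the same site as the match of HERPUD2-AS1 at chr7:35695148-35695152, read from the other strand. At least 1 match is present in 45.3% of the 35116 RefSeq promoter windows, so a match is common. Neither window holds TGANTCA, the AP-1 motif, or CCGGAAG, an ETS core, which occur in 7.71% and 10.3% of windows.

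RP3-428L16.2 and MAP3K4 both rose but by different amounts. MAP3K4 was at 45.5, 39.0 and 40.2 CPM in vehicle and 90.6, 89.3 and 90.02 CPM in TGF-beta libraries. Its log2 fold change of 1.11 lay below that of the antisense row by 1.53 ± 0.11 SE (edgeR interaction test, adjusted p = 6.88e-07, and 1.43 to 1.69 over 10 alternatives). The antisense row lies at chr6:160990318-160992342 on the minus strand, and 17.6% of its exon bases are inside MAP3K4 exons. Its window is shown because it belongs to the largest rise; the RefSeq start sites of the pair lie 573 bases apart and their windows do not overlap.
MAP3K4-AS1: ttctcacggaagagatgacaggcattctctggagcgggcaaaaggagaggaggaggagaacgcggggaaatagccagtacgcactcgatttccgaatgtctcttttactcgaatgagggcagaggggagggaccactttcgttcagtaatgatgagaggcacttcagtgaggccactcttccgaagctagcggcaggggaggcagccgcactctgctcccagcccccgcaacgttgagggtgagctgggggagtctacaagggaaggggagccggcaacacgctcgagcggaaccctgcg
It holds none of the 3 motifs and is 59.0% G and C, and the MAP3K4 window also holds none and is 78.0% G and C. RefSeq windows were matched by symbol for 151 of the 492 rows.

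In other pairs the antisense change lay below that of the partner. TP73-AS1 was at 23.5, 24.1 and 25.6 CPM in vehicle and 23.3, 25.3 and 26.2 CPM in TGF-beta libraries, so its groups overlapped, and its small change of 0.03 log2 was not called and was below 0 with library totals alone, on RPKM values and without TGF-beta library 3. TP73, a gene of the p53 family, was at 0.45, 0.94 and 0.96 CPM in vehicle and 2.52, 1.99 and 2.37 CPM in TGF-beta libraries, and the difference was -1.45 ± 0.20 log2 SE (edgeR interaction test, adjusted p = 0.000319). LOXL1-AS1 rose from 4.91, 5.84 and 5.07 CPM to 10.3, 10.3 and 10.45 CPM, a log2 fold change of 0.97, while LOXL1, a gene for an elastin and collagen crosslinking enzyme, rose by 1.48. Their difference of -0.51 missed the threshold in 3 of 10 alternatives (adjusted p from 0.000991 to 0.0608). AC073342.12 fell by 0.69 log2 beside -0.11 for GSTK1, with no exon base shared with GSTK1 and 70% shared with any gene. PSMD5-AS1, which shares no exon base with any other gene and was chosen after its values were seen, was at 16.8, 17.8 and 17.4 CPM in vehicle and 11.7, 11.5 and 11.2 CPM in TGF-beta libraries. It fell by 0.59 log2, and the difference from PSMD5, a proteasome assembly gene at -0.11 log2, was -0.48 ± 0.07 SE (edgeR interaction test, adjusted p = 0.000314).

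**Figure D5:**
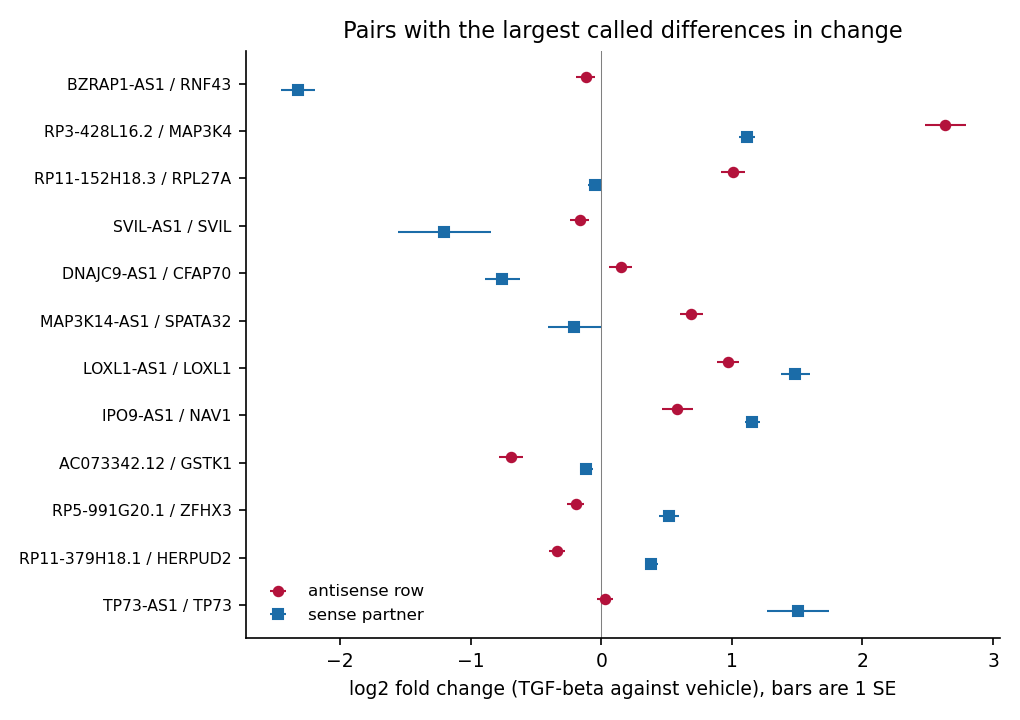
Log2 fold change of antisense row (red circles) and sense partner (blue squares), with bars of 1 SE, for the 6 largest called differences in each direction. RP3-428L16.2 lies farthest right, and RNF43 at -2.32 farthest left, beside BZRAP1-AS1 at -0.12.

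Some of the called differences depended on which overlapping gene served as partner. In 16 of the 42 pairs another overlapping protein_coding gene had a higher mean count, and against that gene 13 differences were no longer called. BZRAP1-AS1 was at 13.7, 13.7 and 15.3 CPM in vehicle and 12.6, 13 and 13.8 CPM in TGF-beta libraries while RNF43, a negative regulator of WNT receptors, fell from 4.53, 4.43 and 4.15 CPM to 0.92, 0.79 and 0.90 CPM. The difference from RNF43 was 2.21 log2, whereas that from SUPT4H1, which it also overlaps, was -0.04. MAP3K14-AS1 rose by 0.69 log2, above SPATA32 by 0.88 but within 0.05 of MAP3K14, the NF-kappa-B inducing kinase gene, which was at 0.74. DNAJC9-AS1 differed from CFAP70 by 0.91 log2 and from DNAJC9 by 0.04. IPO9-AS1 rose by 0.58 log2, which was 0.57 below NAV1 and 0.49 above IPO9, both called in edgeR.

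RP11-152H18.3 was at 4.87, 5.14 and 5.40 CPM in vehicle and 11.1, 10.6 and 9.31 CPM in TGF-beta libraries, a log2 fold change of 1.01. Its longest overlap is with the ribosomal protein gene RPL27A, on its own strand, at -0.05 log2. ST5, on the opposite strand, rose by 0.92 log2, and the difference from it was 0.08 and not called. SVIL-AS1 stood at -0.16 log2 and was not called, although it was in 4 of 14 alternatives (adjusted p from 0.000347 to 0.359), with SVIL, which encodes the actin-linked protein supervillin, at -1.20 log2. SVIL was at 72.3 CPM in vehicle library 1 and at 159 and 159 CPM in the others, so its SE was 0.35, and the called difference of 0.99 missed the threshold in 8 of 10 alternatives (adjusted p from 7.81e-21 to 0.232).

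The rows least mixed with other genes showed both directions. At most 10% of exon bases lay in any other gene in 48 of the 492 rows, and of these 12 were higher, 10 lower and 26 not called (45.8% called, near the 40.1% of all genes tested). Their log2 fold changes ran from -1.45 to 1.22 with a median of -0.04. Among those named after their values were seen, AC093673.5, which shares no exon base and has no partner, was at 7.54, 10.0 and 8.72 CPM in vehicle and 15.2, 12.8 and 15 CPM in TGF-beta libraries (log2 fold change 0.70, edgeR adjusted p = 0.000611). NNT-AS1 fell by 0.45 log2 together with NNT, the mitochondrial transhydrogenase gene, which fell by 0.45, with 3.30% of its exon bases shared. FGD5-AS1 and PCBP1-AS1, at mean levels of 119 and 123 CPM in vehicle, stood at -0.03 and 0.02 log2 and were not called.

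A list of antisense and related RNAs known from work on TGF-beta, epithelial plasticity or fibrosis held called changes in both directions. Of 42 listed, 40 were matched in the table under any biotype, by name or, for KRT7-AS, by gene ID. Of the 29 tested, 11 were higher, 5 lower and 13 not called, with 19.7% higher and 20.4% lower over all genes tested; their log2 fold changes had a median of 0.07. The list includes 11 of the members, RP3-416H24.1 (KRT7-AS, described above) among them. VIM-AS1, which shares its start region with the gene of the intermediate filament vimentin, was at 242, 269 and 250 CPM in vehicle and 414, 468 and 464 CPM in TGF-beta libraries. It rose by 0.82 log2 and VIM by 0.66, and the difference of 0.15 was not called. TGFB2-AS1, named for the ligand gene TGFB2 and without an overlapping protein_coding gene, was at 10.8, 10.5 and 9.45 CPM in vehicle and 13.1, 11.8 and 13.6 CPM in TGF-beta libraries. Its rise of 0.32 log2 (edgeR adjusted p = 0.00972) was not called in 2 of 14 alternatives (adjusted p from 0.000272 to 0.0693).

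GAS6-AS1 rose by 0.23 log2, less than GAS6, a ligand gene of the TAM receptors, at 0.47, with a called difference of -0.23. The rise of GAS6-AS1 was lost in 5 of 14 alternatives (adjusted p from 0.000338 to 0.181) and the difference in 2 of 10 (from 2.43e-05 to 0.0787). TUG1, at 307, 302 and 293 CPM in vehicle and 345, 342 and 321 CPM in TGF-beta libraries, rose by 0.16 log2, a call lost in 6 of 14 alternatives (adjusted p from 0.000401 to 0.581). ZFAS1, MCM3AP-AS1 and AFAP1-AS1 stood at -0.09, 0.05 and -0.02 log2 and were not called. ZFAS1 was called lower in 4 of 14 alternatives (adjusted p from 0.0052 to 0.547 over the 14); MCM3AP-AS1 was below 0 with library totals alone and on RPKM values, and AFAP1-AS1 above 0 without vehicle library 3 or TGF-beta library 2.

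At the count limit that defines the members, the rows just inside were RP11-518L10.5 at a mean count of 300.17, TPT1-AS1 at 301.33 and CTC-453G23.5 at 301.5, with log2 fold changes of 0.24, -0.20 and -0.05. The rows just outside were RP11-70L8.4 at 299.83, AC009501.4 at 299.5 and RP13-753N3.3 at 299.33, with 0.20, 0.28 and -0.05. The last of each trio lay close to 0, and CTC-453G23.5 changed sign when single libraries were left out.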

How the data were processed

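RNA sequencing of 6 H69 libraries, grouped by the treatment in the labels, was analysed from 1 deposited table of 64253 genes. Per the submitters' processing notes, bcl2fastq, STAR 2.6.1 and featureCounts of Subread were used with build hg38. The strand setting, the handling of reads that overlap several genes and the annotation release are not given in the sources used here. Per the file headers, the authors deposited raw counts per gene and RPKM values (scaled for the length of the gene and for depth).

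The whole table was fitted in R 4.3.3 with edgeR 4.0.16: filterByExpr (minimum count 10), TMM scaling, the robust quasi-likelihood test and Benjamini-Hochberg adjustment over 20992 genes, called at an adjusted p under 0.05. All 492 members passed the filter. Of the 485 partners, 477 pairs had both genes tested. The difference between antisense and sense change was the interaction of role and treatment, with library as a term, in an edgeR fit of all 2109 pairs. After TMM scaling 1 CPM stood for 35.7 to 56.2 reads. Strand and exons came from GENCODE 29 by Ensembl ID (483 of 492 matched, 456 with the same span), and promoters from RefSeq by symbol. Both tests were checked on simulated counts, drawn separately for each row. That check held no reads shared between overlapping rows and no library that stood apart, so it does not cover those cases.

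The members and lists were chosen with earlier results of these data known. Named in the text were the 10 largest rises (1 of them is not reported here) and all falls of at least 2-fold, the 5 rows with the highest mean count, RP11-244F12.3, the 6 largest called differences each way, 3 rows on each side of the count limit, the members on the fixed list, and rows said to be chosen after their values were seen. Alternatives were RLE size factors, library totals, other filters, DESeq2 1.42.0, limma 3.58.1 on log2 RPKM with pseudocounts of 1 and of 0.1 (minimum 0.5 RPKM), limma on the log2 ratio of the pair (prior count 2), other partners, a replicate block and leaving out each library.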

Additional observations from a re-analysis of the deposited data

How the results depend on the processing

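The number of members called higher was 140 and lower 74. With RLE size factors, other filters on low counts and DESeq2 both counts stayed within 1.5 times of these; with library totals alone they were 77 and 139, and on the deposited RPKM values 87 and 110 with either pseudocount, where 485 members passed the RPKM minimum. Leaving out 1 library gave 94 to 182 higher and 50 to 92 lower. The replicate numbers in the labels were not taken to pair the libraries. Same-numbered libraries deviated together with correlations of 0.065, 0.062 and 0.013, and differently numbered ones with -0.070 to 0.014. Values this close to each other do not settle whether the libraries were paired. With the replicate block 133 members were higher and 75 lower. Called differences between antisense and sense change, 22 above and 20 below, became 16 and 14 with limma on the log2 ratio, 12 and 12 with that ratio and the replicate block, 17 and 21 with the partner of highest count, and 22 and 17 with opposite-strand partners only. Leaving out 1 library gave 12 to 44 above and 9 to 31 below. Settings for 5 further counts were chosen after seeing the data. The 169 pairs called in the same direction and the 346 within 0.1 log2 stayed within 1.5 times under library totals, DESeq2 and each left-out library. As single libraries were left out, called differences ran from 0 to 14 with at least 50% of exon bases shared, from 15 to 47 below that, and from 5 to 11 with none shared. The partner was the same for 420 of 485 members by highest count and for 466 on the opposite strand.

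Of 1159 values for 88 named results, 1045 kept direction and side of the threshold, 51 lost the call, 31 gained one and 32 changed sign. Of these sign changes, 28 are log2 fold changes of genes near 0 that were not called. With library totals alone they were RP11-386G11.10 (-0.014), TUBA1B (-0.024), XXbac-BPG252P9.9 (-0.030), TUBB (-0.020), TP73-AS1 (-0.096), MCM3AP-AS1 (-0.076), MCM3AP (-0.082) and AFAP1 (-0.077). On log2 RPKM with a pseudocount of 1 or of 0.1 they were TP73-AS1 (-0.034 and -0.053), MCM3AP-AS1 (-0.025 and -0.034), MCM3AP (-0.037 and -0.041) and AFAP1 (-0.021 and -0.022). With single libraries left out RP5-940J5.9 ran from -0.091 to 0.017, GAPDH from -0.076 to 0.016, TP73-AS1 from -0.0029 to 0.079, CTC-453G23.5 from -0.15 to 0.0082, AFAP1-AS1 from -0.12 to 0.10 and AFAP1 from -0.082 to 0.13. With the partner of highest count the difference changed sign for IPO9-AS1 (0.49), MAP3K14-AS1 (-0.045), BZRAP1-AS1 (-0.045) and TPT1-AS1 (-0.14); there the partner itself changes. With an RPKM pseudocount of 1, which shrinks changes of rows with few RPKM, 15 of 44 called changes were smaller by over 1.5 times: RP3-428L16.2 (1.35), RP11-244F12.3 (1.36), PRICKLE2-AS1 (0.78), PRICKLE2 (0.99), NR2F1 (-0.90), HERPUD2 (0.25), ZFHX3 (0.27), IPO9-AS1 (0.37), NAV1 (0.65), LOXL1-AS1 (0.38), LOXL1 (0.80), MAP3K14-AS1 (0.37), TGFB2-AS1 (0.21), and GAS6-AS1 (0.11) and TUG1 (0.07), which lost the call. The cause of the other changes was not tested.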
